A study of Homo sapiens with 36 samples.

Results

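The genes described here are 10 neuronal adhesion and guidance genes that differed between LNCaP cells with stable HIF1a and LNCaP cells with an empty vector: NTNG1, RELN, SRGAP3, NLGN4X, CNTNAP2, SLITRK3, NETO1, EPHA3, CBLN2 and GPC6. They were taken from 20045 measured genes, and all 22 of their probes are covered, of 48105 probes. The members were selected on the clone differences of these same arrays, so those differences are given as a description with no test. The 10 genes are tested only for vehicle against Normal and androgen against vehicle within a line. These contrasts are not those of the choice, though they rest on the same arrays. How they differ between lines is built from the clone differences and is likewise only described.

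LNCaP is an androgen-sensitive prostate cancer cell line. RNA was measured on 36 Illumina BeadArrays in 7 groups, with 6 arrays for LNCaP/Empty labelled Normal and 5 for every other group. LNCaP/Empty (empty vector) and HIF12 (1 of the lines with a stable, degradation-resistant HIF1a brought in by retrovirus) were each measured with vehicle (0.01% ethanol), with 1 nM R1881, a synthetic androgen, and as Normal. HIF49, another HIF1a line, was measured as Normal only. Vehicle and R1881 were given for 4 h after 96 h in charcoal stripped serum, which holds little androgen. The labels do not define Normal, and they give the same growth text for it. HIF12 and HIF49 are named as clones, so what belongs to a clone and what belongs to HIF1a cannot be told apart within either line. Whether the arrays of 1 group stem from different cultures is not given, so p-values measure only the spread between these arrays, which may be technical. In bulk RNA, fewer cells expressing a gene and less RNA per cell cannot be told apart.

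Most of these genes are known from the nervous system. Netrin-G1 (NTNG1) is a membrane-anchored relative of the netrins that binds LRRC4C on the partner cell. Reelin (RELN) is a secreted protein that guides migrating neurons through the receptors VLDLR and LRP8. Cerebellin 2 (CBLN2) is a secreted linker that binds presynaptic neurexins, and glypican 6 (GPC6) is a heparan sulfate proteoglycan of the cell surface. Neuroligin 4 X-linked (NLGN4X) and SLITRK3 are postsynaptic adhesion proteins that bind neurexins and LAR-type phosphatases, respectively, and CNTNAP2 is an adhesion protein of the neurexin family that organizes potassium channels on axons. EPHA3 is a receptor kinase for ephrin-A ligands, NETO1 is an auxiliary subunit of kainate receptors, and SRGAP3 is a GTPase-activating protein downstream of Slit and Robo. HIF1a is the oxygen-regulated subunit of a transcription factor that binds a short core, ACGTG or GCGTG, in DNA.

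Between 15374 and 17839 probes were detected per array, where detection means a detection p under 0.01. Levels are background-corrected, quantile-normalized intensities on the log2 scale, so that 1 unit is a doubling. Of 10 luminal prostate markers, 9 to 10 were detected on every array. Of 16 neuron and neuroendocrine markers, 3 to 4 were detected, among them DDC, TUBB3 and ENO2, and SYP, SNAP25, SYT1 and NCAM1 were detected on no array. HIF1A, the gene carried by the transgene, stood at 9.92 ± 0.26 (SD, n = 5) in HIF12 vehicle and at 8.36 ± 0.38 (n = 5) in LNCaP/Empty vehicle on probe ILMN_1763260. Probe ILMN_1681283 of HIF1A was higher by 1.17 in vehicle, 1.33 with R1881 and 1.48 in Normal in HIF12 and by 0.8 in HIF49. A further HIF1A probe, ILMN_2379788, differed by only 0.15 in vehicle, 0.04 with R1881 and -0.12 in Normal in HIF12 and by -0.04 in HIF49. The array labelled HIF49 Normal replicate 1 went against its label on ILMN_1763260, reading 7.45 where the other 4 HIF49 arrays read 10, 10, 10.19 and 10.35. On ILMN_1681283 it read 7.09, against 8.78 to 9.08 on the other 4. That array also had the fewest detected probes, 15374. Its highest correlation with another array was 0.9778, against at least 0.9895 for every other array. That closest array was of HIF49. HIF49 Normal replicate 4 was instead closest to an LNCaP/Empty Normal array, at 0.9907, though its HIF1A readings lay with its label on both probes. All other arrays were closest to an array of their own group. Because of the HIF1A readings of replicate 1, values of the 10 genes in HIF49 are given first with replicate 1. After all of them, they are given without it.

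The promoters shown are those of NTNG1 and RELN, higher in both HIF1a lines, of EPHA3, lower in both, and of SLITRK3 and NETO1, each called lower with R1881 in LNCaP/Empty, NETO1 on 1 of 3 probes. Of the 3 NTNG1 windows the one with a HIF core is shown, and of the 2 SLITRK3 and 3 NETO1 windows the one with an androgen receptor half-site. They come from RefSeq, build GRCh38.p14, and run from 250 bases before an annotated start to 50 after it. All 10 genes matched, with 16 starts. Capitals mark the HIF core (ACGTG or GCGTG) and the half-site bound by the androgen receptor (AGAACA), each on either strand.
NTNG1, chr1:107141085-107141384, plus strand: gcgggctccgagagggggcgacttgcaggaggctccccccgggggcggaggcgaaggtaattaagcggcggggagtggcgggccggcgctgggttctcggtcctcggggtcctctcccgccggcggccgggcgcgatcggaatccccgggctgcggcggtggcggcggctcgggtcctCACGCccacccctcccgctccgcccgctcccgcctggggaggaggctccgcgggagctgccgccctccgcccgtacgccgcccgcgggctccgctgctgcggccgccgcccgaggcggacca
RELN, chr7:103989609-103989908, minus strand: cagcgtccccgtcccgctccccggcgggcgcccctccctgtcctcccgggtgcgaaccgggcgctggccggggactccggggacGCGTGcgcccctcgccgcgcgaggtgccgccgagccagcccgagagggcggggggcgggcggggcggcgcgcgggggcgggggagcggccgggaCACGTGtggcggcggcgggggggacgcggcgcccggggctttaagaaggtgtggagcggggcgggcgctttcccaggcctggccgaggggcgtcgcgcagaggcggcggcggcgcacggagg
EPHA3, chr3:89107371-89107670, plus strand: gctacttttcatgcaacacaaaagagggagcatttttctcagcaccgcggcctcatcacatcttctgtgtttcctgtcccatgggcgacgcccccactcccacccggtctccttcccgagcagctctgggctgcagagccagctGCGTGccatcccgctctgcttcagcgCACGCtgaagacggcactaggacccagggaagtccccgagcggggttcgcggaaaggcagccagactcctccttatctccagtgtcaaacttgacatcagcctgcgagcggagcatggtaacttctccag
SLITRK3, chr3:165197060-165197359, minus strand: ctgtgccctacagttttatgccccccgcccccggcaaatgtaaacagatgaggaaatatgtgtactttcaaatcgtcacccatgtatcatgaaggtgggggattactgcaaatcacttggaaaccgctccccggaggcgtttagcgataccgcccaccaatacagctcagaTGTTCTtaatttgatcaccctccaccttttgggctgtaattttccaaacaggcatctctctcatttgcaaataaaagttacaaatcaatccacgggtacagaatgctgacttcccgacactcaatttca
NETO1, chr18:72865637-72865936, minus strand: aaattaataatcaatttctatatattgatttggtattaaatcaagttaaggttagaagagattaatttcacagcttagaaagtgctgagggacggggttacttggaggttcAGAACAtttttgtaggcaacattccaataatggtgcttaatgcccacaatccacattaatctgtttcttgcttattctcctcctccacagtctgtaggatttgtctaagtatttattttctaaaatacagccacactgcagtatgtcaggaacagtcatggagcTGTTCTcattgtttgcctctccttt

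The HIF core lay in 1 of the 3 NTNG1 windows, at -72 from the start, and was found in 2 stretches of the RELN window, of which CACGTG reads the same on both strands, and at 2 places in the EPHA3 window. In all, 8 of the 16 windows held it, from 8 of the 10 genes, and so did 48.4% of 35116 promoter windows of the same length. The windows of NLGN4X and CNTNAP2 did not hold it. The AGAACA half-site lay in 2 of the 16 windows, 1 of SLITRK3 and 1 of NETO1, against 14.8% of all windows. These matches describe the letters of these windows only.

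**Figure D1:**
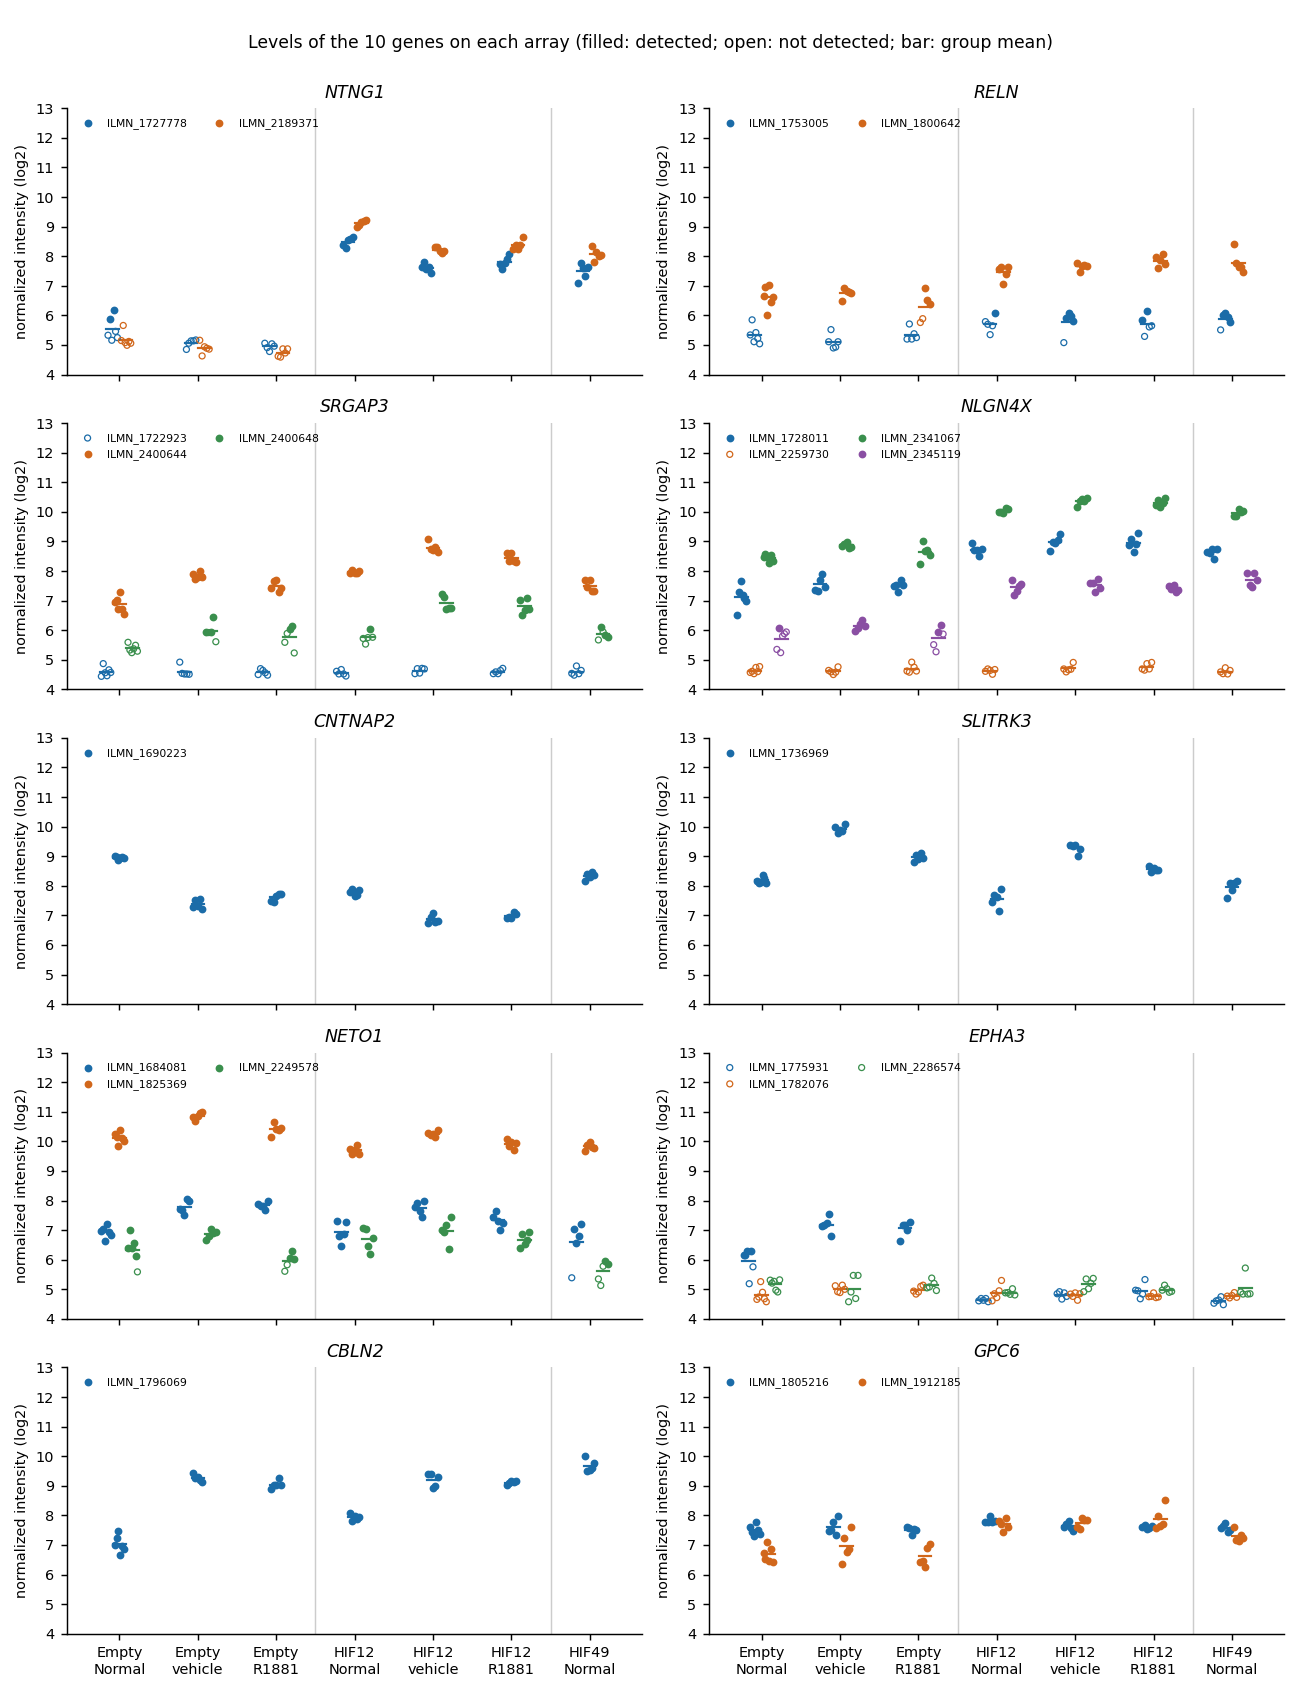
Normalized intensity (log2, y axis) of every probe of the 10 genes on each of the 36 arrays, by group (x axis). Each point is 1 array, filled where the probe was detected and open where it was not, and bars are group means. NTNG1 was at 8.22 to 9.12 on average in the HIF12 and 4.74 to 5.18 in the LNCaP/Empty groups on ILMN_2189371, while SLITRK3 and CBLN2 were higher with vehicle than in Normal in both lines.

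NTNG1 on ILMN_2189371 was undetected on all 16 LNCaP/Empty arrays and detected on all 20 arrays of the HIF1a lines. The LNCaP/Empty vehicle arrays read 5.16, 4.63, 4.94, 4.89 and 4.86. With vehicle, HIF12 read 8.3, 8.3, 8.19, 8.12 and 8.17. As Normal, HIF12 read 8.98, 9.05, 9.15, 9.19 and 9.23 and HIF49 read 8.35, 7.79, 8.16, 8.02 and 8.04, against 4.99, 5.1 and 5.66 (lowest, median and highest of 6) in LNCaP/Empty. No HIF1a array came near an LNCaP/Empty array, and HIF12 Normal lay above every other group. Where a probe was undetected throughout a group, a fold was taken against the lowest signal among detected probes and is a lower bound: HIF12 was at least 5.02-fold higher in vehicle, 5.52-fold with R1881 and 9.31-fold in Normal, and HIF49 at least 4.5-fold in Normal. The other NTNG1 probe, ILMN_1727778, exceeded LNCaP/Empty in HIF12 by at least 3.31-fold with vehicle and 3.73-fold with R1881. In Normal, where 2 of 6 LNCaP/Empty arrays detected it, it was higher by 2.94 in HIF12 and 1.95 in HIF49 on the log2 scale.

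The other secreted or membrane-anchored ligands split. RELN on ILMN_1800642 read 7.78, 7.48, 7.67, 7.7 and 7.66 in HIF12 vehicle and 6.48, 6.92, 6.81, 6.8 and 6.76 in LNCaP/Empty vehicle, with no overlap. Its difference was 0.90 in vehicle, 1.55 with R1881 and 0.84 in Normal for HIF12, and 1.16 for HIF49. Its dimmer probe, ILMN_1753005, was detected on no LNCaP/Empty array and on 1 to 4 of 5 arrays of each HIF1a group. GPC6 gave different answers on its probes. ILMN_1912185 was higher by 0.61 to 1.27 and ILMN_1805216 differed by 0.02 to 0.32. CBLN2, on its only probe, was 0.91 higher in HIF12 and 2.65 higher in HIF49 in Normal, and differed by -0.05 in vehicle and 0.07 with R1881.

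Among the adhesion proteins and receptors, NLGN4X was higher and CNTNAP2, SLITRK3 and EPHA3 were lower. NLGN4X on ILMN_2341067 read 10.16, 10.37, 10.43, 10.38 and 10.47 in HIF12 vehicle and 8.84, 8.91, 8.99, 8.77 and 8.82 in LNCaP/Empty vehicle. Its 3 detected probes (ILMN_1728011, ILMN_2341067 and ILMN_2345119) were higher by 1.38 to 1.74 in HIF12 over the 3 conditions and by 1.5 to 2.00 in HIF49, and ILMN_2259730 was detected on no array. EPHA3 on ILMN_1775931 read 7.14, 7.18, 7.24, 7.53 and 6.79 in LNCaP/Empty vehicle and was detected on no array of any HIF1a group. HIF12 was at least 2.48-fold lower in vehicle, 2.42-fold with R1881 and 1.06-fold in Normal, and HIF49 at least 1.04-fold lower in Normal, where only 4 of 6 LNCaP/Empty arrays detected the gene. The EPHA3 probes ILMN_1782076 and ILMN_2286574 were detected nowhere. CNTNAP2 was lower by 0.50 (vehicle), 0.62 (R1881) and 1.17 (Normal) in HIF12 and by 0.60 in HIF49. SLITRK3 was lower by 0.64, 0.40 and 0.62 in HIF12 and by 0.22 in HIF49, where the arrays overlapped.

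The intracellular and auxiliary members were SRGAP3 and NETO1. SRGAP3 on ILMN_2400644 was higher by 0.94 in vehicle, 0.94 with R1881 and 1.09 in Normal in HIF12, and by 0.62 in HIF49. The dimmer ILMN_2400648 was higher by 0.95 in vehicle and 1.03 with R1881, and differed by 0.37 in HIF12 Normal and 0.48 in HIF49, where no LNCaP/Empty array detected it. ILMN_1722923 was detected on no array. The 3 NETO1 probes disagreed: the bright ILMN_1825369 was lower by 0.29 to 0.61 in the 4 comparisons, whereas ILMN_2249578 was 0.72 higher in HIF12 with R1881 and 0.73 lower in HIF49. ILMN_1684081 differed by -0.03 in vehicle, -0.50 with R1881 and 0.01 in Normal in HIF12 and by -0.34 in HIF49.

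By the thresholds used for all genes (adjusted p under 0.05 in limma and at least 1.5-fold on 1 probe), 5 members were higher and 3 lower in HIF12 with vehicle, beside 0.958% and 0.908% of all genes. With R1881 these counts were 6 and 2, beside 1.57% and 1.16%. As Normal they were 6 and 3 in HIF12, beside 0.998% and 1.04%, and 6 and 3 in HIF49, beside 0.863% and 0.863%. The choice of members fixed these counts, and nothing is read from them. Without HIF49 Normal replicate 1, 5 members passed in HIF49 (NTNG1, RELN, NLGN4X, EPHA3 and CBLN2). SRGAP3 (0.58 on ILMN_2400644 and 0.53 on ILMN_2400648), CNTNAP2 (-0.56) and GPC6 (0.53 on ILMN_1912185 and 0.08 on ILMN_1805216) were then below 1.5-fold. NETO1 did not pass, at -0.66 on ILMN_2249578, -0.26 on ILMN_1825369 and -0.03 on ILMN_1684081. Without that array CBLN2 was at 2.57, RELN at 1.00 on ILMN_1800642, NLGN4X at 1.5 to 1.94, NTNG1 on ILMN_1727778 at 2.04 and SLITRK3 at -0.13. NTNG1 on ILMN_2189371 was still undetected on every LNCaP/Empty array and EPHA3 on every HIF49 array.

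**Figure D2:**
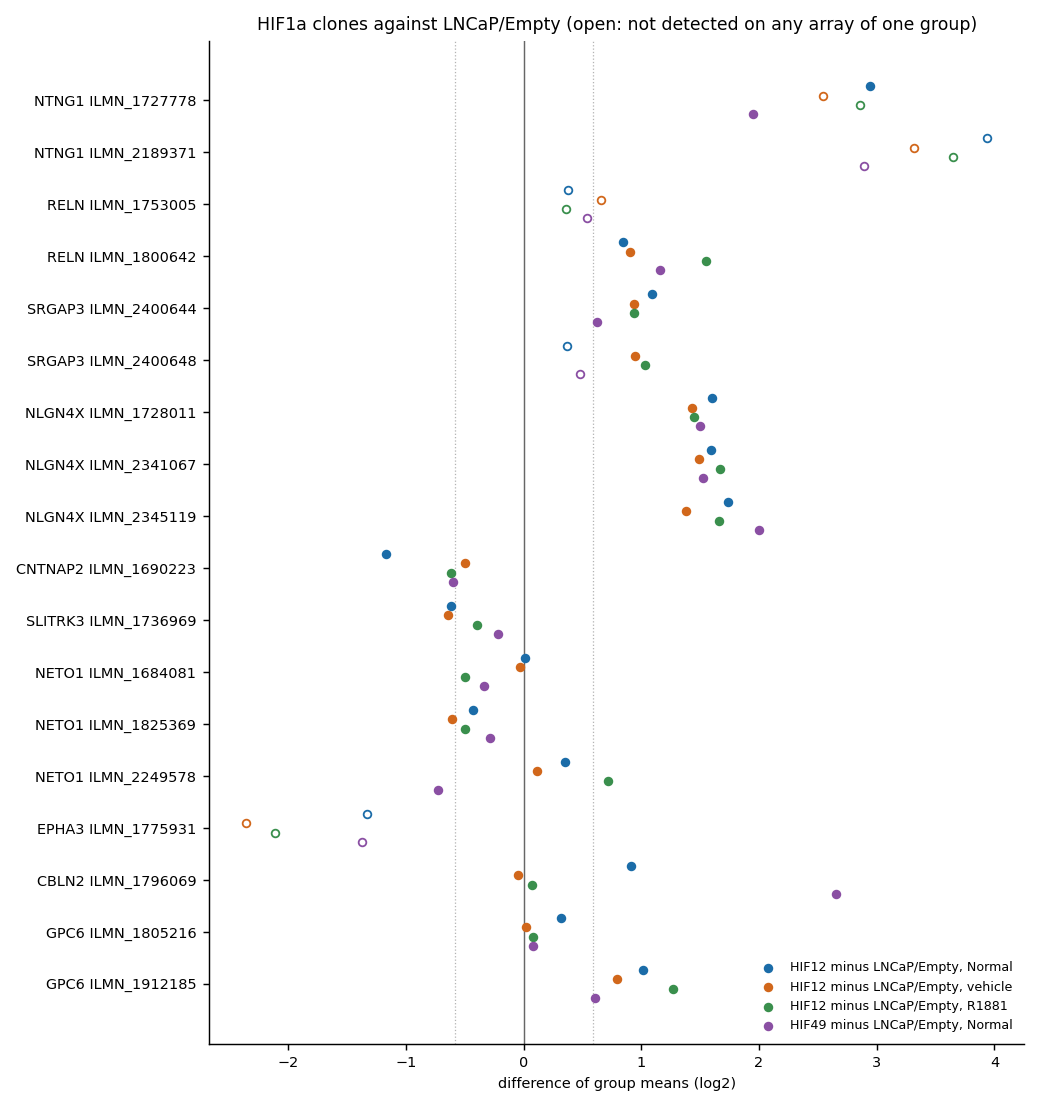
Difference of group means (log2, x axis) for the 18 probes detected on at least 5 arrays, for HIF12 minus LNCaP/Empty in 3 conditions and HIF49 minus LNCaP/Empty in Normal. Open points were undetected on every array of 1 group, and dotted lines mark 1.5-fold. NLGN4X lies between 1.38 and 2.00 on all 3 probes and CBLN2 lies near 0 in vehicle and with R1881.

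Most of the 10 genes differed between the vehicle and the Normal arrays, and rose or fell is written here for vehicle relative to Normal. In LNCaP/Empty, CBLN2, SLITRK3, EPHA3, SRGAP3 and NETO1 rose and CNTNAP2 fell, so that 5 members rose, beside 3.29% of all genes, and 1 fell, beside 2.93%. In HIF12, SLITRK3, CBLN2, SRGAP3 and NETO1 rose, beside 3.82% of all genes, and CNTNAP2 and NTNG1 fell, beside 2.71%. The clone differences behind the choice of members use these same arrays, and the shares cover all genes, detected or not. Nothing is therefore read from member counts beside shares, here or with R1881. The median difference over the 10 genes was 0.58 in LNCaP/Empty and 0.26 in HIF12, against -0.01 and 0.00 over all genes. How the Normal cultures differed from the vehicle cultures is not given in the labels.

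CBLN2 showed the widest change of the 10 genes in LNCaP/Empty. It read 9.44, 9.25, 9.29, 9.18 and 9.12 in LNCaP/Empty vehicle and 6.67, 6.97 and 7.46 (lowest, median and highest of 6) in Normal, a rise of 2.23 ± 0.11 (SE; 4.68-fold; adjusted p = 9.4e-17, limma). In HIF12 it read 9.4, 9.41, 8.94, 8.99 and 9.31 with vehicle and 8.08, 7.82, 7.97, 7.87 and 7.95 in Normal, a rise of 1.27 ± 0.11 (adjusted p = 2.9e-10, limma). Vehicle levels overlapped between the lines, and the Normal levels did not. HIF49 Normal, at 10.01, 9.5, 9.52, 9.61 and 9.78, lay above every vehicle array of both lines.

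SLITRK3 rose in both lines. LNCaP/Empty vehicle read 10, 9.77, 9.88, 9.84 and 10.1 and Normal 8.1, 8.15 and 8.35 (lowest, median and highest of 6), a rise of 1.73 ± 0.10 (adjusted p = 1e-14, limma). HIF12 vehicle read 9.39, 9.35, 9.38, 9.02 and 9.24 and Normal 7.45, 7.7, 7.63, 7.15 and 7.88, a rise of 1.71 ± 0.11 (adjusted p = 4.1e-14, limma). The rises differed by -0.02 ± 0.15 (SE).

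CNTNAP2 went the other way. In LNCaP/Empty it read 7.28, 7.51, 7.31, 7.54 and 7.22 with vehicle and 8.86, 8.95 and 9 (lowest, median and highest of 6) in Normal, a change of -1.58 ± 0.07 (adjusted p = 3.3e-17, limma). In HIF12 it read 6.75, 6.95, 7.08, 6.78 and 6.81 with vehicle and 7.8, 7.89, 7.67, 7.68 and 7.85 in Normal, a change of -0.91 ± 0.08 (adjusted p = 9.6e-11, limma). Neither pair of groups overlapped.

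NTNG1 fell in HIF12, by 0.87 on ILMN_1727778 (adjusted p = 2.6e-05, limma) and by 0.90 on ILMN_2189371 (adjusted p = 1.5e-07, limma), and no vehicle array reached a Normal array on either probe. SRGAP3 rose by 0.98 (adjusted p = 1.2e-08, limma) in LNCaP/Empty and by 0.82 (adjusted p = 9.6e-07, limma) in HIF12 on ILMN_2400644. On ILMN_2400648 it rose by at least 1.05-fold in LNCaP/Empty (adjusted p = 0.004, limma), a call lost in several alternatives, and by 1.16 in HIF12 (adjusted p = 4.7e-07, limma). NETO1 rose by 0.74 (adjusted p = 1.3e-07, limma) in LNCaP/Empty on ILMN_1825369 and by 0.86 (adjusted p = 0.0023, limma) on ILMN_1684081. In HIF12 the first of these differed by 0.56, short of 1.5-fold, and ILMN_1684081 rose by 0.81 (adjusted p = 0.0066, limma). ILMN_2249578 differed by 0.53 and 0.28, and did not pass. EPHA3 rose by 1.2 (adjusted p = 1.5e-07, limma) in LNCaP/Empty and was undetected in both HIF12 groups. NLGN4X differed by 0.42 to 0.44 in LNCaP/Empty and 0.08 to 0.32 in HIF12, RELN by 0.13 and 0.19 on ILMN_1800642, and GPC6 by -0.19 to 0.27, none of them a 1.5-fold change.

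Markers of other kinds moved in the same comparison. The summed level of the 16 neuron and neuroendocrine markers ran from 1600 to 2020 on the LNCaP/Empty Normal arrays and from 6950 to 8620 on the vehicle arrays, and in HIF12 from 1660 to 1770 and from 7340 to 7860. DDC (2.93 and 2.94), TUBB3 (1.27 and 1.48) and ENO2 (0.69 and 0.98) rose in LNCaP/Empty and HIF12, respectively, while the other 13 of the 16 did not pass and the median difference over the list was 0.11 and 0.02. DDC read 12.56 with vehicle and 9.63 in Normal in LNCaP/Empty. Summed levels add intensities taken back from the log2 scale, so DDC, the brightest of the 16, weighs most in that sum. Of 12 basal, stromal, endothelial and immune markers, 3 to 4 were detected, and their sum ran from 2120 to 2300 in Normal and from 1090 to 1270 with vehicle in LNCaP/Empty, with ACTA2 at -1.84. The androgen-regulated luminal genes KLK2 (-2.85 and -3.37) and KLK3 (-1.97 and -2.14) fell, whereas the luminal marker ACP3 rose (1.97 and 1.64). Of the 10 luminal markers, 3 rose and 4 fell in LNCaP/Empty and 2 rose and 3 fell in HIF12. The median difference over that list was 0.03 and -0.16. The part of these shifts in the values of the 10 genes was not tested.

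**Figure D3:**
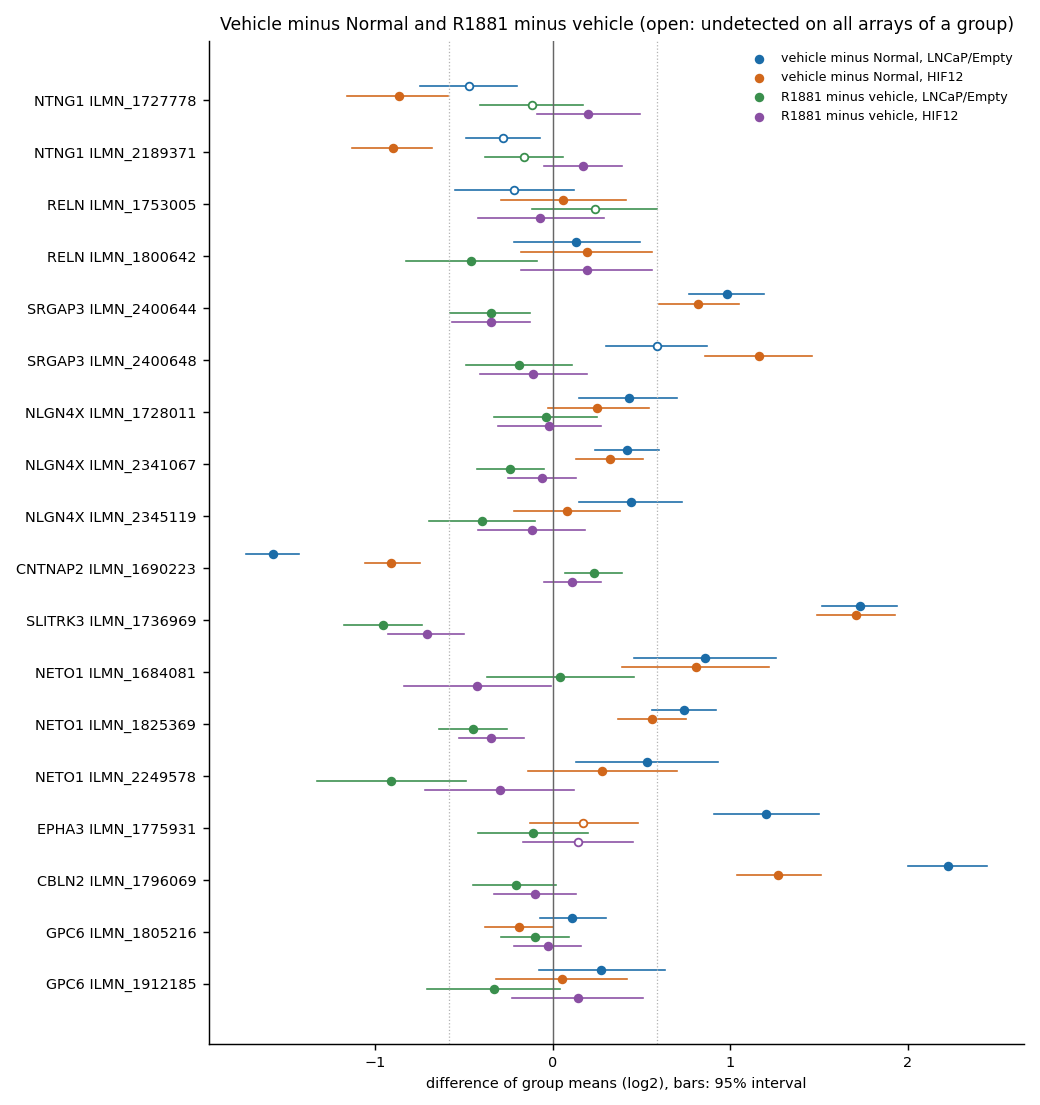
Difference of group means (log2, x axis) with 95% intervals for the 18 detected probes, for vehicle minus Normal and R1881 minus vehicle in LNCaP/Empty and HIF12. Open points were undetected on every array of 1 group, and dotted lines mark 1.5-fold. SLITRK3 lies at 1.73 and 1.71 for vehicle minus Normal and at -0.96 and -0.71 for R1881 minus vehicle.

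R1881 lowered SLITRK3 in both lines and 1 of 3 NETO1 probes in LNCaP/Empty, and raised none of the 10 genes. SLITRK3 read 8.82, 9.03, 8.91, 9.1 and 8.94 with R1881 in LNCaP/Empty, below every vehicle array, a change of -0.96 ± 0.11 (SE, n = 5 and 5; adjusted p = 8.5e-08, limma). In HIF12 it read 8.68, 8.46, 8.61, 8.52 and 8.55, again below every vehicle array, a change of -0.71 ± 0.11 (adjusted p = 3.7e-05, limma). R1881 levels stayed above every Normal array in each line. The R1881 and the Normal comparisons share the vehicle arrays.

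NETO1 on ILMN_2249578 read 5.61, 5.83, 6.06, 6.28 and 6.03 with R1881 and 6.66, 6.81, 7.03, 6.91 and 6.95 with vehicle in LNCaP/Empty, a change of -0.91 ± 0.21 (adjusted p = 0.0081, limma), with 3 of 5 R1881 arrays detected. Without background correction this change was -0.44 and did not pass. The bright probe ILMN_1825369 changed by -0.45 in LNCaP/Empty (adjusted p = 0.003, limma) and -0.35 in HIF12 (adjusted p = 0.059, limma), both under 1.5-fold, and ILMN_1684081 by 0.04 and -0.43. ILMN_2249578 was at -0.30 in HIF12. In LNCaP/Empty 0 members rose and 2 fell, beside 1.3% and 0.519% of all genes, and in HIF12 0 rose and 1 fell, beside 1.07% and 0.244%. The other genes changed by -0.46 (RELN) to 0.24 in LNCaP/Empty and by -0.35 (SRGAP3) to 0.20 in HIF12 on their probes. NTNG1 in HIF12 changed by 0.17 (95% interval -0.05 to 0.39) on ILMN_2189371.

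The R1881 effects of HIF12 and LNCaP/Empty differed by 0.24 ± 0.15 (SE) for SLITRK3, by 0.61 ± 0.29 for NETO1 on ILMN_2249578 and by 0.65 ± 0.26 for RELN on ILMN_1800642. Of the 10 genes, 0 were past the thresholds in either direction, beside 0% of all genes higher and 0.00998% lower.

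The vehicle-against-Normal effects of the lines differed by 0.67 ± 0.11 (SE) for CNTNAP2, which fell by 1.58 in LNCaP/Empty and by 0.91 in HIF12. For CBLN2 the difference was -0.95 ± 0.16, from rises of 2.23 and 1.27. For both genes the means of the lines lay closer together with vehicle than in Normal. EPHA3 and NTNG1 on ILMN_2189371 were undetected throughout HIF12 and LNCaP/Empty, respectively, so their differences have no measured size. Past the thresholds were 1 gene in the higher direction, beside 0.14% of all genes, and 2 in the lower, beside 0.0898%, and nothing is read from these counts.

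The 10 lists of further genes from the same pathways held 146 genes, of which 141 were measured and 58 were detected on at least 5 arrays. With vehicle against Normal, 10 of the 141 rose and 3 fell in LNCaP/Empty, and 12 rose and 1 fell in HIF12. Over all genes 3.29% rose and 2.93% fell in LNCaP/Empty, and 3.82% rose and 2.71% fell in HIF12. The median difference over the 141 genes was 0.02 and 0.04. The partners of the members were among them. GRIK1, a kainate receptor subunit of the kind NETO1 binds, was undetected on all Normal arrays of both lines and read 7.28 ± 0.17 (n = 5) and 7.35 ± 0.20 (n = 5) with vehicle, at least 2.61-fold and 2.76-fold higher (adjusted p = 1.2e-16 and 7.4e-16, limma). The reelin receptor LRP8 fell by 0.70 (adjusted p = 2.4e-08, limma) and 0.61 (adjusted p = 7.3e-07, limma). NLGN1, another neuroligin, rose by 1.27 (adjusted p = 2.1e-08, limma) in LNCaP/Empty. It also rose in HIF12, by at least 1.23-fold (adjusted p = 5.3e-05, limma), where it was undetected on all Normal arrays.

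Of the 31 measured semaphorins, plexins and neuropilins, the longest of the lists, 4 rose and 1 fell in LNCaP/Empty and 6 rose in HIF12. SEMA6A, a membrane-bound semaphorin, rose by 1.72 (adjusted p = 1.6e-11, limma) and 2.09 (adjusted p = 4.3e-13, limma), and the plexin receptor PLXNA3 by 0.75 (adjusted p = 0.00073, limma) and 1.30 (adjusted p = 3e-07, limma). SEMA3C, a secreted semaphorin, rose by 0.95 (adjusted p = 2.2e-05, limma) in LNCaP/Empty, and SEMA3E fell there by 0.68 (adjusted p = 0.00023, limma). EFNB3, an ephrin-B ligand, rose by at least 1.98-fold in LNCaP/Empty, where no Normal array detected it (adjusted p = 7.8e-12, limma), and by 1.68 in HIF12 (adjusted p = 8.8e-11, limma). The cell surface proteoglycans SDC4 (0.97 and 0.98) and SDC2 (0.94 and 0.71) rose in both lines.

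With R1881, 2 of the 141 rose and 2 fell in LNCaP/Empty and 1 rose in HIF12, beside 1.3% and 0.519% of all genes in LNCaP/Empty and 1.07% higher in HIF12. VLDLR, the other reelin receptor, rose in both, by 0.99 (adjusted p = 0.00098, limma) and 0.84 (adjusted p = 0.01, limma). SDC4 fell by 0.64 (adjusted p = 0.035, limma) and SEMA6A by 0.60 (adjusted p = 0.014, limma) in LNCaP/Empty.

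Between the clones and LNCaP/Empty, 1 of the 141 genes was higher and 2 lower in HIF12 with vehicle, beside 0.958% and 0.908% of all genes, 2 and 2 with R1881, beside 1.57% and 1.16%, and 1 and 0 in Normal, beside 0.998% and 1.04%. In HIF49 1 was higher and 0 lower, beside 0.863% and 0.863%. The lists held no member, and the members were selected because they differed between these lines. Genes of these pathways that differed were thus left out of the 141 beforehand, which lowers the counts. Nothing is therefore read from these counts beside the shares. SEMA3C was higher in HIF12 in vehicle (0.70, adjusted p = 0.0079, limma), with R1881 (0.66, adjusted p = 0.011, limma) and in Normal (1.07, adjusted p = 9.8e-06, limma). NLGN1 was lower in vehicle by 0.94 (adjusted p = 5.8e-05, limma) and with R1881 by 0.94 (adjusted p = 4.3e-05, limma). LRRC4C, the netrin-G1 partner, read 5.88 ± 0.35 (n = 5) in LNCaP/Empty vehicle, detected on 3 of 5 arrays. It was detected on no array of either HIF1a line. No LNCaP/Empty Normal array detected it either, and HIF49 was measured as Normal only. In HIF12 it was at least 1.01-fold lower with vehicle, and with R1881 the lower bound was under 1. EPHB4 was 0.77 higher in HIF49 (adjusted p = 0.0012, limma), and without HIF49 Normal replicate 1 no gene of the lists passed there.

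The genes whose pattern over the 7 group means was most like that of NTNG1 on ILMN_2189371, of 10950 genes compared, were HIF1A (Pearson r = 0.99), ADARB1 (0.983), CWF19L2 (0.982), GDF11 (0.982) and CFAP119 (0.981). The means come from the same arrays and clones, and the values are a description. Each gene entered with its most similar probe, which for HIF1A was ILMN_1763260. Over the 36 arrays HIF1A gave 0.83 and the other 4 gave 0.557 to 0.877. Over the 35 without HIF49 Normal replicate 1, HIF1A gave 0.955 and the other 4 gave 0.551 to 0.882. On that array NTNG1 read 8.35, the highest of the HIF49 arrays, and EPHA3 was undetected as on the other 4. Among the members, on the brightest probe of each, NLGN4X (0.95) and RELN (0.92) followed NTNG1 most closely and EPHA3 ran most opposite (-0.94).

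**Figure D4:**
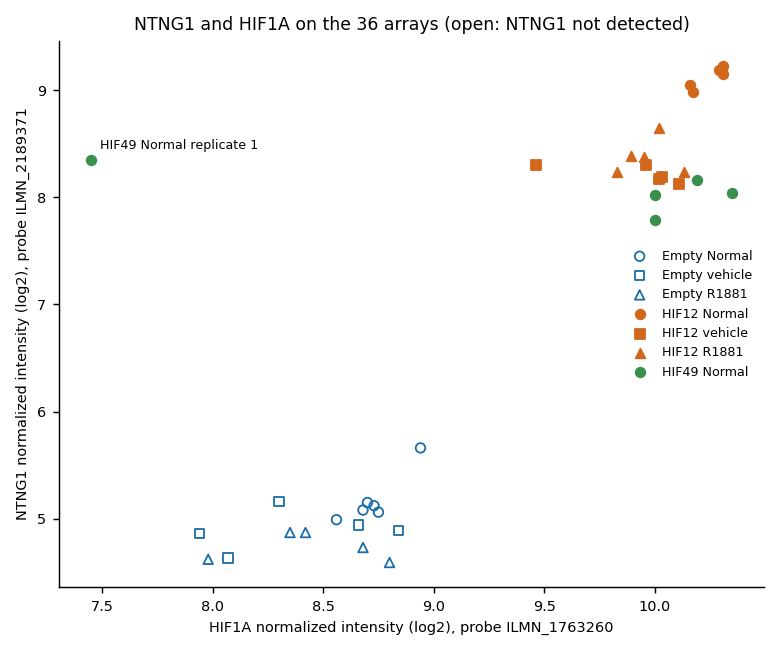
NTNG1 (ILMN_2189371, y axis) against HIF1A (ILMN_1763260, x axis), normalized intensity on the log2 scale, with 1 point for each of the 36 arrays, open where NTNG1 was undetected. The HIF1a arrays reach down to 7.79 and the LNCaP/Empty arrays up to 5.66 on the NTNG1 axis, and HIF49 Normal replicate 1 lies apart at 7.45 on the HIF1A axis.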

How the data were processed

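The authors measured RNA of LNCaP lines on Illumina BeadArrays. The deposited tables hold non-normalized probe intensity values and a detection p-value for each probe on each array. A deposited normalized table, put on the log2 scale here, served only as an alternative. The array type named by the study and the type of the probe annotation differ, and the study's removal of poorly matching probes was not repeated.

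Intensities were background-corrected with nec in limma 3.58.1 (R 4.3.3; offset 16, negative controls inferred from the detection p-values), quantile-normalized and put on the log2 scale. limma was fitted to 48105 probes with 1 mean for each of 7 groups, with Benjamini-Hochberg adjustment within each comparison. A gene was called when 1 probe had an adjusted p under 0.05 and at least 1.5-fold change, and detection meant a detection p under 0.01. The script was tested on simulated data. The number of arrays limits the precision.

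The members and lists were chosen with earlier results of these data known. All members were named on every probe, and no p is given for a member in contrasts built from the clone differences. List genes do carry a p in the contrasts between the clones and LNCaP/Empty. List genes were named from among the 3 called genes of largest change in each list and comparison. Every array of the higher group had to detect them, and no array of the groups could overlap. Not all genes that met this rule were named. KLK2, TMPRSS2 and SLC45A3 with R1881, and NRP1 and NCK2 for vehicle against Normal in HIF12, are examples left out. The 5 genes most like NTNG1 were also named. LRRC4C, and list genes beyond these 3, were named after their values were seen. Alternatives changed the background correction, normalization, probe filter, arrays fitted, blocks and weights, and left out each array in turn. Parental and hypoxia arrays were not analysed here.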

Additional observations from a re-analysis of the deposited data

Results flagged for a closer look

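In GPC6, probe ILMN_1805216 read 7.98 on HIF12 Normal replicate 3 and 7.77 to 7.8 on the other 4 arrays of that group, a gap past Dixon's critical value. It was the 1 such array among 96 combinations of a probe and a group, where chance alone flags about 1 in 20. The change from Normal to vehicle differed between HIF12 and LNCaP/Empty by 0.67 for CNTNAP2 and by -0.95 for CBLN2. For EPHA3, undetected on all HIF12 arrays, the fitted difference was -1.03, which is no measured size. These differences between the groups are built from the clone differences on which the genes were selected, so they are given as a description with no test.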

How the results depend on the processing

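For the 10 genes, no difference past the thresholds in the main run or in an alternative changed direction. This covers the probes detected on at least 5 arrays. Changes of sign among smaller differences were not counted. Differences were smaller without background correction, with normexp at an offset of 50 and in the deposited normalized table, and fewer genes reached 1.5-fold. With R1881 in LNCaP/Empty each of these 3 left 1 member (SLITRK3) of 2 and 1 list gene of 4, and 2 list genes passed with only the compared arrays and with running numbers in blocks of 6. NETO1 there was at -0.44, -0.5 and -0.44. In HIF12 the 1 list gene was lost (0) without background correction and in the deposited table. For vehicle against Normal the 13 list genes became 7, 8 and 7 in LNCaP/Empty and 7, 7 and 7 in HIF12, and CNTNAP2 in HIF12 was at -0.57 without background correction and in the deposited table, just under 1.5-fold. Between HIF12 and LNCaP/Empty in vehicle 4 members of 8 and 0 list genes of 3 passed without background correction and in the deposited table. With R1881, 0 list genes of 4 passed in all 3, and 8 with median scaling. In Normal, 2 list genes in place of 1 passed with only the compared arrays, running numbers in blocks of 6 or 12, and array weights. For HIF49 5 members of 9 passed in all 3, and 0 list genes of 1 with only the compared arrays and with array weights.

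Leaving out 1 array at a time gave 1 to 5 list genes with R1881 in LNCaP/Empty (1 without R1881 replicate 2, 2 without vehicle replicate 2 or 5) and 1 to 2 in HIF12 (2 without R1881 replicate 5). In HIF12 Normal against LNCaP/Empty it gave 1 to 3 (3 without HIF12 replicate 3, 2 without HIF12 replicate 1, 2 or 4 or LNCaP/Empty replicate 2 or 5). In HIF49 it gave 5 to 8 members and 0 to 1 list genes, with 5 and 0 without HIF49 replicate 1.

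Arrays with the same replicate number did not deviate together (correlations of -0.24 to 0.27 over 105 pairs, median 0.01, with 21 of 105 closest to their own number), so the numbers were not taken as pairing. With the number as a replicate block, 2 members passed for R1881 in LNCaP/Empty and 1 in HIF12, 6 and 6 for vehicle against Normal, 2 in place of 3 for the difference, and 7 in place of 9 in HIF49.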
